A study of Homo sapiens with 36 samples.

Results

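A set of 9 genes that mark dividing cells was read across 36 human lymphoma cell lines measured by targeted RNA-Seq. They were taken from the deposited count table by symbol (MKI67, TOP2A, BUB1, CCNB1, BIRC5, AURKA, AURKB, PLK1 and TTK), and 9 of 9 were found among the 2549 genes of the panel. The rule goes by symbol alone, although the set was drawn up with earlier results of these data known. Each line gave 1 library, run as a single sample, so the spread between lines is the error available and no line has a technical replicate. The labels name the lines and no lymphoma type, no treatment and no growth state.

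The types used here are therefore those under which these established lines are known. The types of RCK8, TOLEDO, JVM2 and DOHH2 are less settled. The marginal zone and hairy cell group (MZL/HCL) held 5 lines: HAIR_M, HC_1, KARPAS1718, SSK41 and VL51. The mantle cell lymphoma group (MCL) held 9: GRANTA519, JEKO1, JVM2, MAVER1, MINO, REC1, SP49, SP53 and UPN1. Diffuse large B-cell lymphoma of the activated B-cell-like class (ABC) was represented by 6 lines, HBL1, RCK8, RIVA, SUDHL2, TMD8 and U2932. The germinal centre B-cell-like class (GCB) was represented by 14, DB, DOHH2, KARPAS422, OCILY1, OCILY18, OCILY19, OCILY7, OCILY8, SUDHL10, SUDHL16, SUDHL4, SUDHL6, TOLEDO and WSU_DLCL2. MEC1, from chronic lymphocytic leukaemia, and FARAGE, given no type, entered no comparison of types. All are immortalised cultures selected for growth outside the body, which limits them as models of proliferation in a tumour.

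The level of a gene is given as CPM, the count scaled to a common library size after correction by TMM factors. Libraries held 6422917 to 13451527 counts (median 10476681), and a count of 0 would have allowed at most 0.474 CPM. The panel counts designed targets, so levels were compared between lines and not between genes. The B-cell markers MS4A1, CD79A, CD22, PAX5 and CD74 lay above 10 CPM in every line, with the lowest values at 14.5 CPM (CD22 in RCK8) and 24.0 CPM (MS4A1 in SUDHL16). MEC1 stood apart, with the highest TMM factor (1.87) and 424 counts on its highest control probe, against 0 to 64 in the other libraries.

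All 9 genes belong to the machinery of chromosome duplication and segregation, and their transcripts accumulate late in the cell cycle. Many such genes are held off in resting cells by a repressor complex that contacts the cell cycle homology region (CHR) of their promoters, and are driven in dividing cells through CCAAT boxes bound by the factor NF-Y. In lymphoma the protein of MKI67, Ki-67, is the stain by which pathologists grade growth, and the Aurora, Polo-like and TTK kinases have been drug targets. In lysates of a whole culture, a larger share of cycling cells and more transcript per cycling cell cannot be told apart.

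Promoters were printed for MKI67, TOP2A, PLK1 and CCNB1, the members of the 3 pairs of genes that went together most closely across lines. Each window holds 250 bases before and 50 bases after the start of the gene in RefSeq on GRCh38.p14, read 5′ to 3′ on the strand of the gene. Capitals mark CHR letters (TTTGAA or TTCGAA, and their reverse TTCAAA and TTCGAA) and the CCAAT box (CCAAT, reverse ATTGG).
MKI67 (chr10:128126374-128126673, minus strand): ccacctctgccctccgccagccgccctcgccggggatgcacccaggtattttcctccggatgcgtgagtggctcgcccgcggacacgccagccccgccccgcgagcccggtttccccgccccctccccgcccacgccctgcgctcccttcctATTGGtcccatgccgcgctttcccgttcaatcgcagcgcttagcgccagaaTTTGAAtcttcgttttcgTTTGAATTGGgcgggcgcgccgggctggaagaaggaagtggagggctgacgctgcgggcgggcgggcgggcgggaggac
TOP2A (chr17:40417847-40418146, minus strand): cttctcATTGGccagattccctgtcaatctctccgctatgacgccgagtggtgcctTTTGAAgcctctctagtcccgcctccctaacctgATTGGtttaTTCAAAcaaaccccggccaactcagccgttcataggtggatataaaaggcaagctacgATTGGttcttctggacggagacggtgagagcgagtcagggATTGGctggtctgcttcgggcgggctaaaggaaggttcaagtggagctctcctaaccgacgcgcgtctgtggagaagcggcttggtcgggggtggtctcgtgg
PLK1 (chr16:23678639-23678938, plus strand): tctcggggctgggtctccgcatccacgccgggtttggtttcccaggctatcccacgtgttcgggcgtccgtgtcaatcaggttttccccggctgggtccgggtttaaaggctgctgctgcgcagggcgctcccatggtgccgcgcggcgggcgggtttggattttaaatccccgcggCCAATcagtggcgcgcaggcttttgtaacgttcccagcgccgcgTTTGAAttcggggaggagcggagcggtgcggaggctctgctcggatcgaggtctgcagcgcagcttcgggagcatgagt
CCNB1 (chr5:69166900-69167199, plus strand): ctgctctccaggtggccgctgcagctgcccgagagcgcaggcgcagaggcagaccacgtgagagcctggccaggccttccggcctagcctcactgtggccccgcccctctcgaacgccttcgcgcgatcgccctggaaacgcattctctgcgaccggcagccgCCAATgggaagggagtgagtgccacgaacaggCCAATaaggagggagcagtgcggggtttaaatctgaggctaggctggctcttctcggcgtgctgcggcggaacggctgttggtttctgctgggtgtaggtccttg

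The table of promoters held 6 of the 9 genes (MKI67, TOP2A, AURKB, PLK1, BUB1 and CCNB1). CCAAT letters, read on both strands, were found in 6 of these 6, against 34.6% of 35116 promoters of the same length. At least 2 CCAAT boxes were found in 4 of 6 (MKI67, TOP2A, BUB1 and CCNB1), against 10.8%. CHR letters were found in 4 of 6, against 16.4%, and both motifs together in 4 of 6, against 6.38%. The 4 were MKI67, TOP2A, PLK1 and BUB1, while AURKB and CCNB1 held no CHR letters in this window. In MKI67 the CHR letters that begin 29 bases before the start run into a CCAAT box on the other strand. For 5 of the 6 genes, all but MKI67, the RefSeq start lies inside the span that GENCODE gives the gene, and the whole windows of AURKB and PLK1 do, so another start would give another window. These are matches of letters, not measured sites.

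MKI67 encodes Ki-67, the coat protein of mitotic chromosomes, and lies at chr10:128096659-128126385 on the minus strand (GENCODE release 29, GRCh38, as for the genes below). It had the largest SD of the 9 and ran from 92.9 CPM in SUDHL2 to 3318 CPM in GRANTA519, a 35.7-fold range with a median of 712 CPM. This SD over 36 lines was 1.14 log2 units, against a median of 1.20 over the 2406 genes that passed the filter on low counts. SUDHL6 (2617 CPM) and JEKO1 (2081 CPM) followed GRANTA519, and U2932 (153 CPM) and HBL1 (188 CPM) lay next to SUDHL2. A low and a high line thus differed by far more than counting error, since the 95% interval of SUDHL2 was 87.1 to 99.0 CPM.

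By type, MKI67 had 269 CPM in HAIR_M, 588 CPM in SSK41, 615 CPM in HC_1, 1339.5 CPM in KARPAS1718 and 1403 CPM in VL51, the 5 MZL/HCL lines. The MCL lines ran from 391 CPM through a median of 944 CPM to 3318 CPM. The ABC lines ran from 92.9 CPM through a median of 235 CPM to 1224 CPM, and the GCB lines from 209 CPM through 718 CPM to 2617 CPM. In 5 of the 6 ABC lines MKI67 lay below the lowest MCL line, MINO, and RIVA was the ABC line that overlapped.

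TOP2A encodes topoisomerase II alpha, which untangles sister chromatids and is the target of anthracyclines and etoposide, and lies at chr17:40388516-40417950 on the minus strand. It ran from 176 CPM in SUDHL2 to 3546 CPM in SUDHL6, a 20.1-fold range around a median of 1189 CPM (SD 1.02 log2 units). DB (2719.8 CPM) and GRANTA519 (2683 CPM) were the next highest, and WSU_DLCL2 (239 CPM) and MEC1 (378 CPM) the next lowest. By type, the MZL/HCL lines had 518, 895, 968, 1725 and 2195 CPM, from HAIR_M at the low end to KARPAS1718 at the high end. The MCL lines held a narrow range, from 1003 CPM through 1883 CPM to 2683 CPM, against 176 CPM through 659 CPM to 2098 CPM in ABC lines. GCB lines covered the widest range, from 239 CPM through 1582 CPM to 3546 CPM, and overlapped each of the other types.

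**Figure D1:**
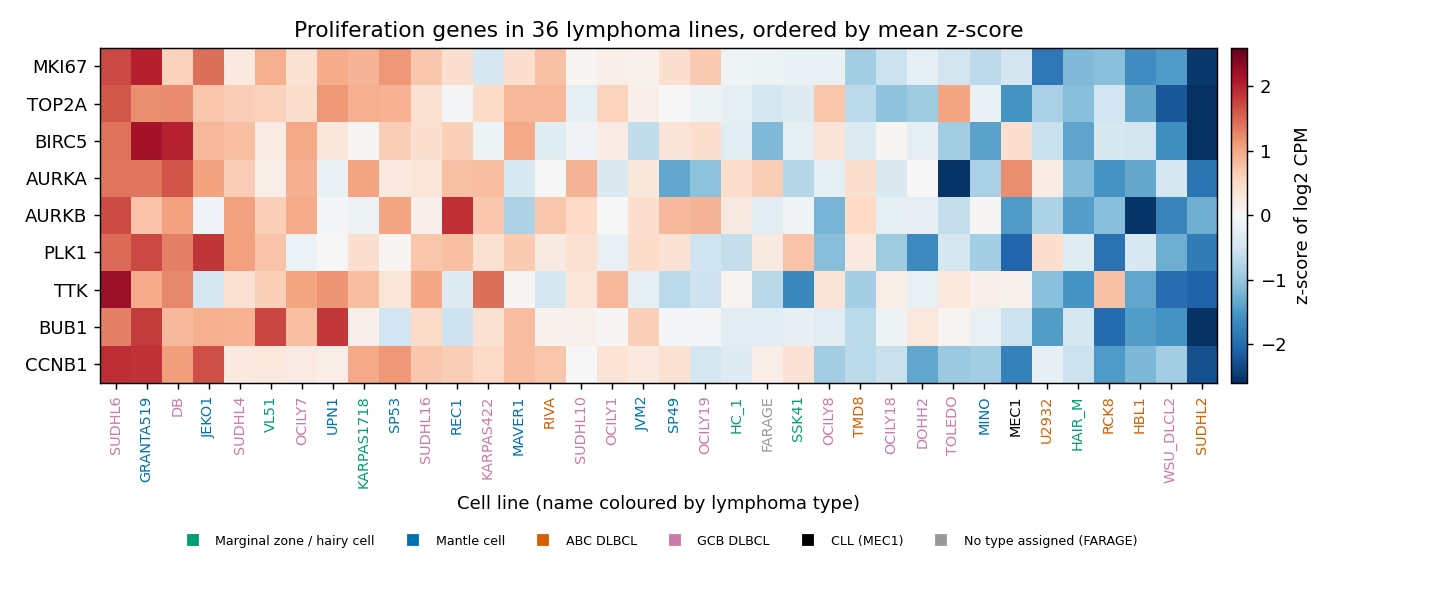
Heat map of the 9 genes (rows) in the 36 lines (columns, names coloured by type), with colour giving the z-score of log2 CPM over 36 lines and columns ordered by the mean z-score of the 9 genes. SUDHL6, GRANTA519 and DB at the left have mean z-scores of 1.64, 1.55 and 1.23, and SUDHL2 at the right has -2.24.

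CCNB1 encodes cyclin B1, the partner of CDK1 that triggers entry into mitosis, and lies at chr5:69167010-69178245 on the plus strand. It ran from 226 CPM in SUDHL2 to 2823 CPM in SUDHL6, a 12.5-fold range around a median of 998 CPM (SD 0.87 log2 units). GRANTA519 (2753 CPM) and JEKO1 (2437 CPM) stood beside SUDHL6, and MEC1 (308 CPM) and RCK8 (367 CPM) beside SUDHL2. The 5 MZL/HCL lines had 639, 731, 1043, 1110.0 and 1614 CPM. Levels in MCL lines ran from 519.6 CPM through 1315 CPM to 2753 CPM, the ABC lines from 226 CPM through 513 CPM to 1368 CPM, and the GCB lines from 394 CPM through 950.5 CPM to 2823 CPM. MCL and ABC thus held the highest and lowest medians, and each pair of types overlapped.

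PLK1 encodes Polo-like kinase 1, which activates the CDK1 switch and matures the centrosomes. It lies at chr16:23677656-23690367 on the plus strand, where the annotation places ERN2 and the antisense transcript AC008870.3 on the other strand, so reads could be shared if counting ignored strand. It ran from 176 CPM in MEC1 to 1863 CPM in JEKO1, a 10.6-fold range around a median of 695 CPM (SD 0.87 log2 units). GRANTA519 (1696 CPM) and SUDHL6 (1465 CPM) were also high, and RCK8 (189 CPM) and SUDHL2 (202 CPM) also low. The 5 MZL/HCL lines had 418, 499.7, 779, 949 and 951 CPM. In MCL lines it ran from 358 CPM through 804 CPM to 1863 CPM, the ABC lines from 189 CPM through 585 CPM to 785 CPM, and the GCB lines from 223 CPM through 547 CPM to 1465 CPM. PLK1 was the gene of the 9 whose ABC median was not the lowest of the 4 types.

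AURKA encodes Aurora A, the kinase of spindle poles that activates PLK1, and lies at chr20:56369389-56392337 on the minus strand. It was the steadiest of the 9, with a 5.85-fold range from 172 CPM in TOLEDO to 1009 CPM in DB (median 544 CPM). Its SD of 0.61 log2 units was larger than or equal to that of 6.19% of the genes that passed the filter. GRANTA519 (908 CPM) and SUDHL6 (906 CPM) were next to DB, and SUDHL2 (226 CPM) and RCK8 (264 CPM) next to TOLEDO. The 5 MZL/HCL lines had 313, 369.8, 543, 613 and 781 CPM. The medians of the MZL/HCL, MCL and GCB lines (543, 565 and 542 CPM) were nearly the same, and that of the ABC lines was 396 CPM, with a range of 226 to 600.1 CPM. All 4 types overlapped.

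AURKB encodes Aurora B, the kinase of the chromosomal passenger complex that corrects faulty attachments of chromosomes, and lies at chr17:8204733-8210600 on the minus strand. It ran from 76.3 CPM in HBL1 to 1609 CPM in REC1, a 21.1-fold range around a median of 441 CPM (SD 0.99 log2 units). SUDHL6 (1400.0 CPM) and DB (908 CPM) followed REC1, and WSU_DLCL2 (133 CPM) and MEC1 (159 CPM) lay above HBL1. The 5 MZL/HCL lines had 163, 401, 408, 515 and 672 CPM. The MCL lines ran from 253 CPM through 586 CPM to 1609 CPM, the ABC lines from 76.3 CPM through 226 CPM to 706 CPM, and the GCB lines from 133 CPM through 550.3 CPM to 1400.0 CPM. Within the ABC group 4 lines lay under 250 CPM, while TMD8 (624 CPM) and RIVA (706 CPM) reached the level of the MCL and GCB medians.

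BIRC5 encodes survivin, which docks Aurora B to the centromere and also restrains caspases, and lies at chr17:78214186-78225636 on the plus strand. It gave the fewest counts of the 9 genes, 43 to 1300 per library, yet counting error made up 0.754% of its variance between lines. It ran from 4.17 CPM (95% interval 3.02 to 5.62) in SUDHL2 to 167 CPM in GRANTA519, a 40.1-fold range around a median of 37.5 CPM (SD 1.01 log2 units). DB (148 CPM) and SUDHL6 (98.0 CPM) were high, and WSU_DLCL2 (11.7 CPM) and MINO (13.6 CPM) low. The 5 MZL/HCL lines had 13.8, 29.3, 30.4, 37.7 and 42.3 CPM. Levels in MCL lines ran from 13.6 CPM through 56.0 CPM to 167 CPM, the ABC lines from 4.17 CPM through 26.6 CPM to 29.0 CPM, and the GCB lines from 11.7 CPM through 44.0 CPM to 148 CPM. The ABC lines other than SUDHL2 sat close together, between 24.0 and 29.0 CPM.

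TTK encodes the kinase MPS1, which starts the spindle checkpoint at unattached kinetochores, and lies at chr6:80003887-80042527 on the plus strand. It ran from 39.3 CPM in SUDHL2 to 805 CPM in SUDHL6, a 20.5-fold range around a median of 184 CPM (SD 1.00 log2 units). KARPAS422 (455 CPM) and DB (405 CPM) followed SUDHL6, and WSU_DLCL2 (42.8 CPM) and SSK41 (53.1 CPM) lay next to SUDHL2. The MZL/HCL lines split into 53.1 CPM in SSK41 and 58.0 CPM in HAIR_M, and 178, 259 and 295 CPM in HC_1, VL51 and KARPAS1718. In MCL lines it ran from 104 CPM through 173 CPM to 374 CPM, the ABC lines from 39.3 CPM through 85.5 CPM to 286 CPM, and the GCB lines from 42.8 CPM through 218 CPM to 805 CPM. For TTK the highest ABC line was RCK8 (286 CPM), and RIVA had 123 CPM.

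BUB1 encodes a checkpoint kinase that marks the centromere for the passenger complex, and lies at chr2:110637698-110678114 on the minus strand. It ran from 108 CPM in SUDHL2 to 1813 CPM in UPN1, a 16.9-fold range around a median of 558 CPM (SD 0.93 log2 units). GRANTA519 (1799 CPM) and VL51 (1711 CPM) were close to UPN1, and RCK8 (155 CPM) and WSU_DLCL2 (207 CPM) to SUDHL2. The 5 MZL/HCL lines had 417, 464, 487, 609 and 1711 CPM. The MCL lines ran from 393 CPM through 838 CPM to 1813 CPM, the ABC lines from 108 CPM through 220.3 CPM to 601 CPM, and the GCB lines from 207 CPM through 635 CPM to 1298 CPM. In 5 of the 6 ABC lines BUB1 lay below the lowest MCL line and, WSU_DLCL2 apart, below every GCB line. The annotation lists pseudogenes named after MKI67, AURKA and BUB1 (MKI67P1, AURKAP1, AURKAP2 and BUB1P1), so counts of these 3 genes could include reads from copies.

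**Figure D2:**
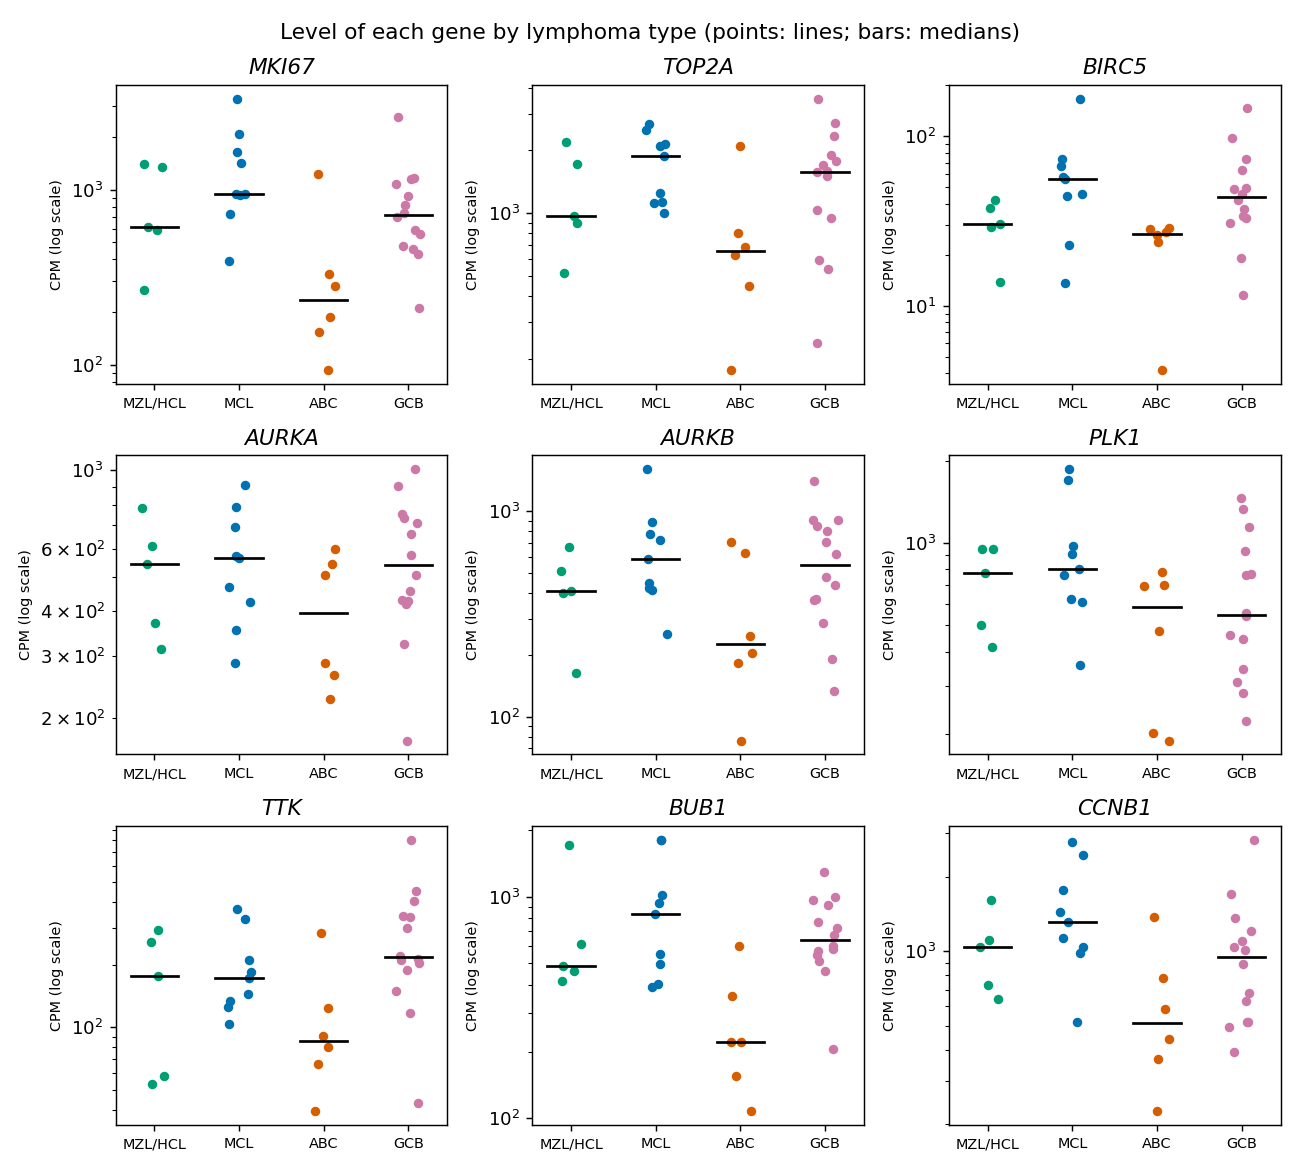
Level of each of the 9 genes in CPM on a log scale (vertical axis, 1 panel per gene) in the 5 MZL/HCL, 9 MCL, 6 ABC and 14 GCB lines (horizontal axis); points are lines and bars are medians. The ABC median is the lowest of the 4 in 8 panels and PLK1 is the exception.

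Read together, the 9 genes set a few lines apart at each end. The mean z-score of the 9 was highest in SUDHL6 (1.64), where 9 of 9 genes were among the 6 highest lines. GRANTA519 (1.55) and DB (1.23) each had 7 genes among the 6 highest, and JEKO1 (0.89) had 6. At the other end SUDHL2 (-2.24) had 9 of 9 genes among the 6 lowest lines, WSU_DLCL2 (-1.46) and HBL1 (-1.29) had 7 each, RCK8 (-1.03) had 5 and HAIR_M (-1.01) had 6. Both ends held GCB lines, SUDHL6 and DB at the top and WSU_DLCL2 near the bottom. The median of the mean z-score was -0.12 in MZL/HCL lines, 0.47 in MCL lines, -0.86 in ABC lines and 0.19 in GCB lines, and the ranges of the 4 types overlapped.

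Some lines held single genes away from the rest of the set, and these were picked out after their values were seen. TOLEDO had the lowest AURKA of all lines (172 CPM, z-score -2.54) with TOP2A among the highest (2335 CPM). MEC1 had high AURKA (839.6 CPM) with the lowest PLK1 (176 CPM). REC1 had the highest AURKB (1609 CPM) and HBL1 the lowest (76.3 CPM), each beyond its own mean z-score. TTK was high in RCK8 (286 CPM) for a line whose other genes were low, and low in SSK41 (53.1 CPM) and JEKO1 (125 CPM). UPN1 had the highest BUB1 (1813 CPM) with an average AURKA (469 CPM).

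Whether proliferation genes differ between lymphoma types was asked by 1 edgeR quasi-likelihood fit of 34 lines, with adjustment over 2374 genes. For any difference among the 4 types, 0 of the 9 genes passed an adjusted p of 0.05, while 6.23% of all genes tested did. At an unadjusted p under 0.05 there were 4 of 9 (MKI67, BIRC5, BUB1 and CCNB1), against 19.8% of all genes. BUB1 was nearest the threshold (adjusted p = 0.0501), and MKI67 followed (adjusted p = 0.116). DESeq2 called 1, BUB1 (adjusted p = 0.0165), where it called 12.1% of genes, and limma on the authors' log2 values called BUB1 (adjusted p = 0.0423), where it called 2.06%. The 6 comparisons of pairs of types that follow come from the same fit and share groups, so they are not independent of each other.

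In ABC against GCB lines, 9 of 9 genes had lower fitted levels in ABC lines and 0 of 9 passed the test, with 2.11% of all genes called. The median log2 difference of the 9 was -0.96, against -0.10 over all genes tested. The largest were BUB1 (220.3 CPM in ABC and 635 CPM in GCB lines at the median, log2 difference -1.32 ± 0.41 SE, adjusted p = 0.0873) and TTK (85.5 CPM in ABC and 218 CPM in GCB lines, -1.31 ± 0.48 SE, adjusted p = 0.154). At an unadjusted p under 0.05 there were 5 of 9 (MKI67, TOP2A, BIRC5, TTK and BUB1), against 16.5% of all genes. DESeq2 called 2, BUB1 (adjusted p = 0.0136) and TTK (adjusted p = 0.0373), with 7.12% of genes called. For PLK1 the median was higher in ABC (585 CPM) than in GCB lines (547 CPM), although the fitted difference was -0.45 ± 0.41 SE (adjusted p = 0.591). The interval of the difference in AURKA reached from -1.13 to 0.12, which holds both 0 and -1.

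These counts moved with single lines, most with RIVA. This line held the highest MKI67, TOP2A, BUB1, CCNB1, AURKB and BIRC5 of the 6 ABC lines. Without it edgeR called 2 of 9 for any difference, MKI67 (adjusted p = 0.00806) and BUB1 (adjusted p = 0.0127), with 7.39% of all genes called, and 3 of 9 genes lower in ABC than in GCB lines, with 3.84% of all genes called. These were MKI67 (-2.17 ± 0.54 SE, adjusted p = 0.0227), BUB1 (-1.86 ± 0.45 SE, adjusted p = 0.0169) and TOP2A (-1.67 ± 0.49 SE, adjusted p = 0.0476). Without RCK8, the ABC line with high TTK, TTK was called instead (-1.87, adjusted p = 0.0427), with 1.90% of all genes called. Without WSU_DLCL2, the GCB line with the lowest BUB1, BUB1 was called (-1.44, adjusted p = 0.0383), with 2.91% of all genes called. Each line left out here lay towards the other type for the genes then called, so leaving it out widened the difference. In the rest of the 34 fits that left out 1 line, none of the 9 was called between ABC and GCB lines.

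In MCL against ABC lines, 9 of 9 genes had higher fitted levels in MCL lines and 0 of 9 passed, with 0.168% of all genes called. The median log2 difference of the 9 was 1.18, against -0.04 over all genes. MKI67 had 944 CPM in MCL and 235 CPM in ABC lines at the median (1.93 ± 0.56 SE, adjusted p = 0.115), and BUB1 had 838 CPM in MCL and 220.3 CPM in ABC lines (1.80 ± 0.44 SE, adjusted p = 0.0556). At an unadjusted p under 0.05 there were 7 of 9, all but AURKA and TTK, against 16.0% of all genes. DESeq2 called MKI67 (adjusted p = 0.0214) and BUB1 (adjusted p = 0.00288), with 2.62% of genes called. Without RIVA edgeR called 4 of 9, with 2.03% of genes called: MKI67 (2.92, adjusted p = 0.0100), BUB1 (2.31, adjusted p = 0.0100), CCNB1 (1.84, adjusted p = 0.0465) and TOP2A (1.86, adjusted p = 0.0485). BUB1 alone was also called without MINO, OCILY8, REC1, VL51 or WSU_DLCL2, at adjusted p of 0.0333 to 0.0493, in fits that called 0.295% to 0.801% of all genes.

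In MCL against GCB lines the 9 genes lay closer together. Fitted levels were higher in MCL lines for 8 of 9 genes and lower for TTK, 0 of 9 passed at either edgeR threshold, adjusted or unadjusted, and 3.92% of all genes were called (17.3% at an unadjusted p under 0.05). DESeq2 called 0 of 9, with 9.05% of genes called. The median log2 difference was 0.31, against -0.17 over all genes. MKI67 had 944 CPM in MCL and 718 CPM in GCB lines (0.80 ± 0.42 SE, 95% interval -0.05 to 1.64, adjusted p = 0.333), and CCNB1 had 1315 CPM in MCL and 950.5 CPM in GCB lines (0.63 ± 0.34 SE, adjusted p = 0.354). AURKA, at 0.09, changed sign when library sizes were used without TMM factors.

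In MZL/HCL against GCB lines, fitted levels were higher in MZL/HCL lines for 2 genes (PLK1 and BUB1) and lower for 7, with a median of -0.14, against -0.07 over all genes. None of the 9 passed at either edgeR threshold, where 3.07% of all genes were called (12.5% at an unadjusted p under 0.05), and DESeq2 called 0 of 9, where it called 4.10%. TTK had 178 CPM in MZL/HCL and 218 CPM in GCB lines at the median (-0.81 ± 0.50 SE, adjusted p = 0.602), and BIRC5 had 30.4 CPM in MZL/HCL and 44.0 CPM in GCB lines (-0.79 ± 0.52 SE, adjusted p = 0.633). BUB1, at 0.07, was below 0 with library size alone, with the TMM factor as a covariate and on the authors' log2 values. CCNB1, at -0.0047, was above 0 on the authors' log2 values.

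In MZL/HCL against ABC lines, 9 of 9 genes had higher fitted levels in MZL/HCL lines (median 0.53, against 0.06 over all genes), and 0 of 9 passed, where 0% of genes were called. At an unadjusted p under 0.05 there was 1 of 9, BUB1, against 7.03% of all genes. DESeq2 called 0 of 9, where it called 1.14% of genes. BUB1 had 487 CPM in MZL/HCL and 220.3 CPM in ABC lines (1.39 ± 0.48 SE, adjusted p = 0.447), and MKI67 had 615 CPM in MZL/HCL and 235 CPM in ABC lines (1.10 ± 0.60 SE, adjusted p = 0.751). In MZL/HCL against MCL lines, 9 of 9 genes had lower fitted levels in MZL/HCL lines (median -0.58, against 0.09 over all genes). None of the 9 passed at either edgeR threshold, where 0.379% of genes were called (6.74% at an unadjusted p under 0.05), and DESeq2 called 0 of 9, where it called 1.31%. BIRC5 had 30.4 CPM in MZL/HCL and 56.0 CPM in MCL lines (-1.10 ± 0.55 SE, 95% interval -2.22 to 0.02, adjusted p = 0.750), and MKI67 had 615 CPM in MZL/HCL and 944 CPM in MCL lines (-0.83 ± 0.57 SE, adjusted p = 0.994).

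**Figure D3:**
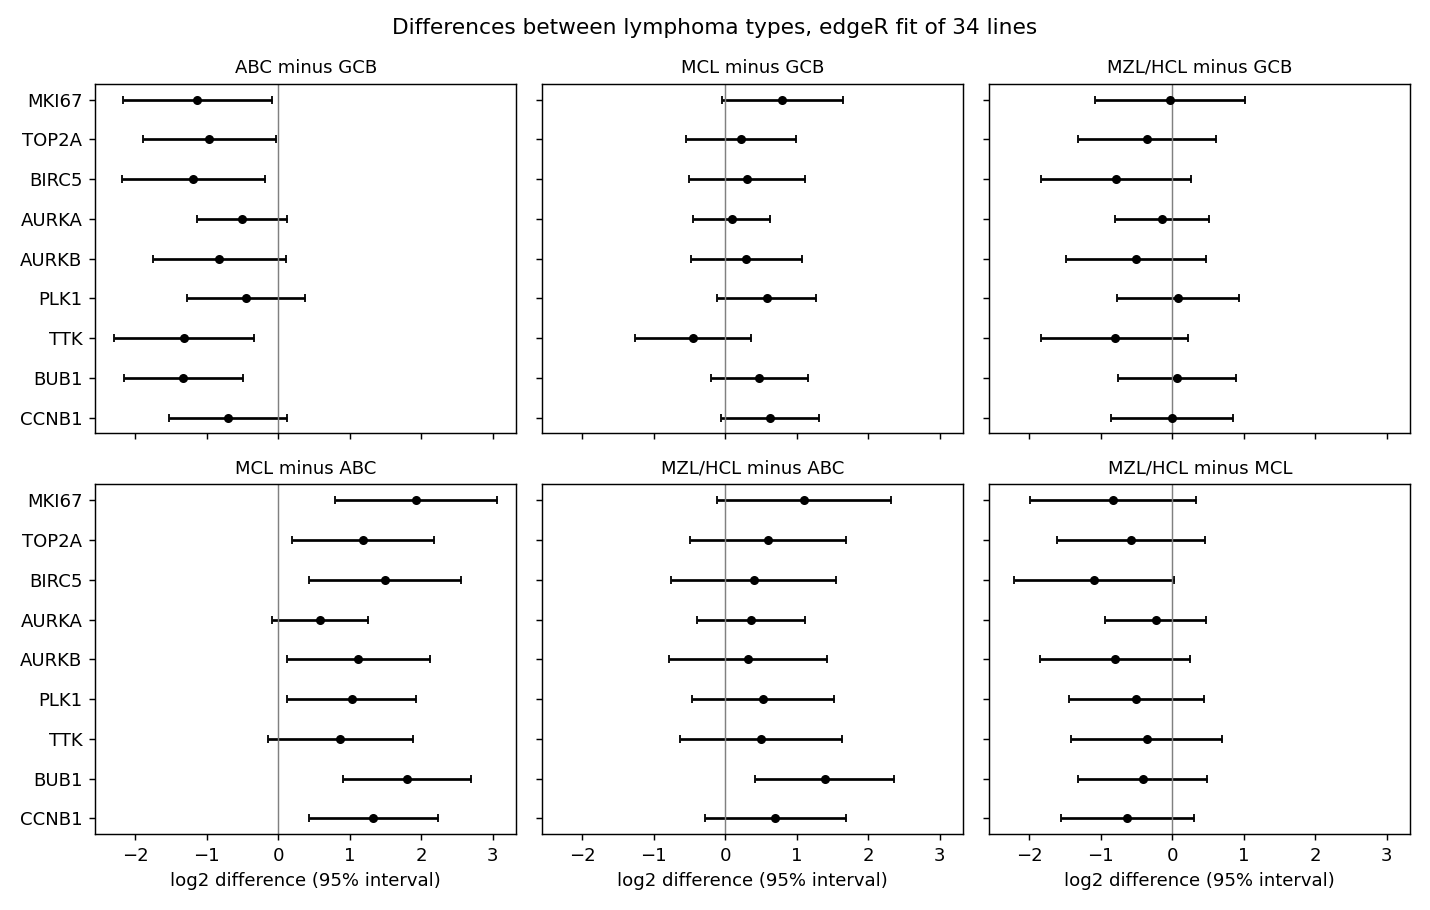
Log2 differences of the 9 genes between types (horizontal axis, 1 panel per comparison, first-named type minus second) with 95% intervals from the edgeR fit of 34 lines. MKI67 in MCL minus ABC lies at 1.93 and BUB1 in ABC minus GCB at -1.32, and 0 of the 54 differences pass the adjusted threshold.

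Library composition and markers of other cells moved with these levels. TMM factors had medians of 1.01 in MZL/HCL lines, 0.993 in MCL lines, 1.20 in ABC lines and 0.890 in GCB lines, and CPM are divided by this factor. Over 36 lines the 9 genes had r of -0.57 (TOP2A) to -0.11 (AURKA) with the log2 TMM factor (median -0.46, against a median of -0.00 over the genes that passed the filter). With the factor as a covariate, the median difference of ABC from GCB lines was -0.74, and 9 of 9 genes stayed below 0, as they did with library size alone (median -0.67). Of markers of other lineages, 20 of 25 were on the panel, none was at 0 in every line, and their medians ran from 1.91 CPM (ITGAM) to 414 CPM (KRT18). Their summed levels went against the mean z-score of the 9 genes for epithelial cells (rho -0.51), myeloid cells (rho -0.45) and T and NK cells (rho -0.43), and not for stromal and endothelial cells (rho 0.02). Of 2397 genes outside the set, 238 had rho under -0.5. The mean z-score itself had rho -0.44 with the log2 TMM factor, and the sums were not regressed on that factor. The epithelial sum was 879 to 1399 CPM in MZL/HCL lines, 446 to 1074 CPM in MCL lines, 579 to 1566 CPM in ABC lines and 470.0 to 2259 CPM in GCB lines. The T and NK cell sum was 14.6 to 425 CPM in MZL/HCL lines, 20.9 to 524 CPM in MCL lines, 83.7 to 398 CPM in ABC lines and 5.10 to 379 CPM in GCB lines. The myeloid sum was 38.5 to 291 CPM, 31.4 to 155 CPM, 56.4 to 282 CPM and 27.4 to 428 CPM in the same 4 types. The part of these markers in the differences was not tested.

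Across the 36 lines the levels of the 9 genes varied together, to differing degrees. Their 36 pairs had a median Spearman rho of 0.590. Above 0.5 lay 29 pairs, a threshold at which the share of all gene pairs was not computed. Among all pairs of genes that passed the filter the median was -0.002 and 6.55% lay above 0.590. These correlations describe 36 lines whose genes share a library, its depth and its composition. After each gene was regressed on the log2 TMM factor the median was 0.576, and within types, after the type means were taken out of 34 lines, it was 0.605.

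PLK1 and CCNB1 went together most closely (rho 0.845, r 0.90, and r 0.88 without MEC1 and RCK8, the lines farthest from the PLK1 median). MKI67 followed with CCNB1 (rho 0.818, r 0.83, and r 0.77 without SUDHL2 and GRANTA519) and with TOP2A (rho 0.805, r 0.83, and r 0.78 without the same lines). PLK1 and TTK, both kinases of mitosis, went together least (rho 0.262, r 0.31, and r 0.41 without MEC1 and RCK8). TOP2A with AURKA (rho 0.382) and TTK with CCNB1 (rho 0.398) were the next lowest. By gene, MKI67 had the highest median rho with the other 8 (0.705) and AURKA (0.503) and TTK (0.507) the lowest.

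**Figure D4:**
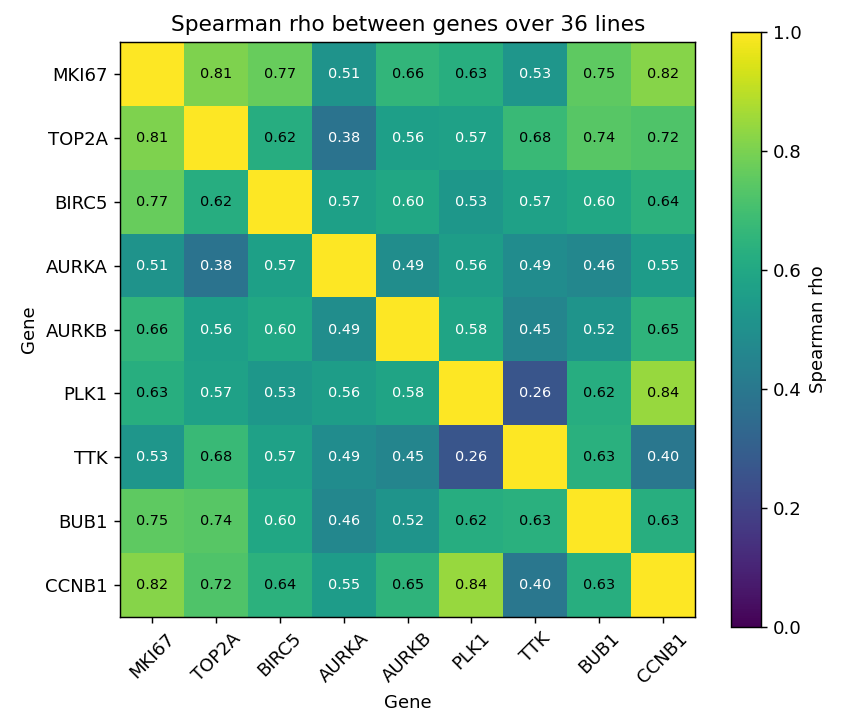
Spearman rho between each pair of the 9 genes over 36 lines, as colour and number. MKI67 has values from 0.51 to 0.82 along its row, and the lowest value of the map is 0.26 between PLK1 and TTK.

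**Figure D5:**
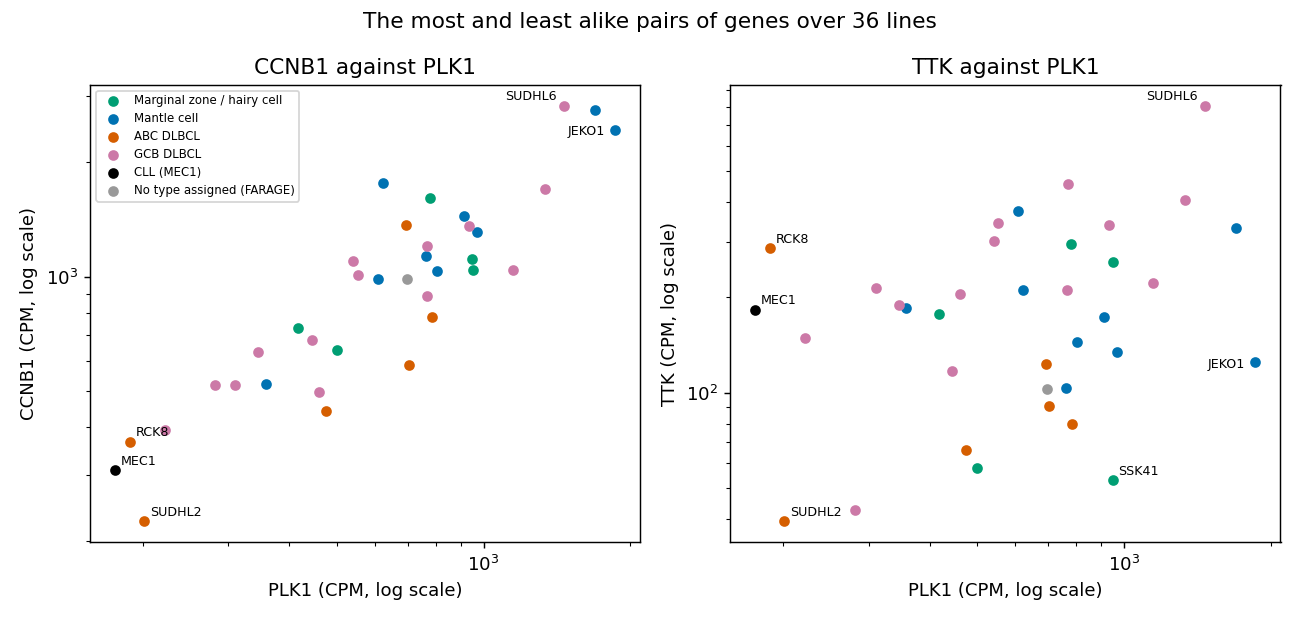
CCNB1 against PLK1 (left) and TTK against PLK1 (right), both axes in CPM on log scales, 1 point per line coloured by type. The left panel has rho 0.845 with SUDHL6 (2823 CPM), GRANTA519 (2753 CPM) and JEKO1 (2437 CPM) highest in CCNB1, and the right panel has rho 0.262 with RCK8 high in TTK and SSK41 low in TTK for their PLK1.

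Outside the 9, the genes whose levels most resembled their mean z-score over 36 lines were ranked by Spearman rho among 2397 genes. HJURP, which loads the centromeric histone, came first (rho 0.895), then ASPM of the spindle poles (0.892), CCNA2, which encodes cyclin A2 (0.889), DLGAP5, a spindle protein (0.885), and NUF2 of the outer kinetochore (0.867). TPX2, the activator of Aurora A (0.852), SMC4, a condensin subunit (0.844), GTSE1, a microtubule-binding protein (0.834), DNAJC9, a histone chaperone (0.819), and MAD2L1 of the spindle checkpoint (0.811) completed the first 10. The median over the 2397 genes was -0.05, and 10.1% lay above 0.5. The 5 most opposed genes, all low, were CD2 (-0.70), CHI3L1 (-0.69), SLC3A1 (-0.68), KRT16 (-0.67) and F10 (-0.67), with medians of 3.98 to 18.3 CPM. After regression on the log2 TMM factor CD2 (-0.57) and CHI3L1 (-0.57) were still among the 5 most opposed, and SLC3A1 (-0.50), F10 (-0.44) and KRT16 (-0.31) were not.

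Each gene had its own nearest neighbour outside the set. For MKI67 it was HJURP (rho 0.837), for TOP2A the replication factor RFC3 (0.900), for CCNB1 DNAJC9 (0.894), and for PLK1 CDC20, the activator of the anaphase promoting complex (0.837). For AURKA it was CDKN3, a phosphatase (0.767), for AURKB TPX2 (0.802), for BIRC5 the cytokinesis gene ANLN (0.811), for TTK the replication kinase CDC7 (0.739), and for BUB1 its checkpoint partner MAD2L1 (0.811). In 8 of the 9 the neighbour was closer than the closest other gene of the set. PLK1, nearer to CCNB1 (0.845), was the exception. The neighbour was picked from 2397 genes and the closest gene of the set from 8. The count therefore does not show how tightly the set holds together.

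Related genes were read from 7 lists holding 95 names, of which 58 were on the panel and tested. Of these 58, 32 had rho above 0.5 with the mean z-score of the 9, against 10.1% of the 2397 genes outside the set. Of the spindle checkpoint and kinetochore list 7 of 17 were measured, and all 7 lay above 0.5 (median 0.752, from 0.592 for BUB1B to 0.895 for HJURP). So did the 7 of 12 measured spindle motor and microtubule genes (median 0.751, from 0.594 for STMN1 to 0.892 for ASPM). Medians were 0.664 over the 5 of 10 passenger complex and cytokinesis genes, 0.641 over the 6 of 11 anaphase promoting complex genes, and 0.576 over the 15 of 17 mitotic entry genes. They were 0.409 over the 5 of 14 transcription factors of this phase and 0.197 over the 13 of 14 brakes of the cycle, inhibitors and retinoblastoma family genes.

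Kinases of the same families did not all follow. PLK4, which starts centriole duplication, had rho 0.786 with the mean z-score, whereas PLK2 had -0.463 and PLK3 -0.137, and AURKC, the Aurora kinase known from germ cells, had -0.298 at a median of 19.3 CPM. Among the brakes RBL1, which encodes the pocket protein p107, was highest at 0.760. CDKN2B, an inhibitor of CDK4 and CDK6, was lowest at -0.293. After regression on the log2 TMM factor PLK4 had 0.789 and RBL1 0.728, while PLK2 had -0.187, PLK3 -0.171, AURKC -0.0945 and CDKN2B -0.158.

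By type, edgeR called 3 of the 58 related genes for any difference (ANLN, CDKN1C and PLK4), where it called 6.23% of all genes. DESeq2 called 4, where it called 12.1% of all genes, and 15 had an unadjusted p under 0.05 in edgeR, against 19.8% of all genes. In ABC against GCB lines edgeR called 2 of 58, where it called 2.11% of all genes. DESeq2 called 8, where it called 7.12%, and 17 had an unadjusted p under 0.05, against 16.5% of all genes. Of the 2 edgeR calls, ANLN fell in ABC lines (152 CPM in ABC and 429 CPM in GCB lines at the median, -1.44 ± 0.40 SE, adjusted p = 0.0438), and CDKN1C, which encodes the inhibitor p57, rose (35.1 CPM in ABC and 11.2 CPM in GCB lines, 3.06 ± 0.71 SE, adjusted p = 0.0152). The ANLN call was lost in 14 of 34 fits that left out 1 line, those without DB, HBL1, OCILY1, OCILY19, RCK8, SP49, SP53, SUDHL16, SUDHL2, SUDHL4, SUDHL6, TMD8, TOLEDO or U2932 (highest adjusted p = 0.130), and the CDKN1C call without RIVA (2.22, adjusted p = 0.0692) and with limma on the authors' log2 values (2.10, adjusted p = 0.201). In MCL against GCB lines edgeR called 2 of 58, where it called 3.92% of all genes, DESeq2 called 2, where it called 9.05%, and 8 had an unadjusted p under 0.05, against 17.3% of all genes. CDKN1C rose (119 CPM in MCL and 11.2 CPM in GCB lines, 4.07 ± 0.69 SE, adjusted p = 0.000345), in that fit and in 34 of 34 that left out 1 line. PLK3 also rose in MCL lines (108 CPM in MCL and 45.8 CPM in GCB lines, 1.53 ± 0.45 SE, adjusted p = 0.0479), and its call held in 12 of those 34 fits, without DOHH2, HC_1, KARPAS1718, KARPAS422, MAVER1, OCILY19, OCILY8, RCK8, SP49, U2932, UPN1 or VL51.

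In the other 4 comparisons 0 of 58 passed in edgeR. The shares of all genes called by edgeR were 0.168% in MCL minus ABC and 3.07% in MZL/HCL minus GCB. They were 0% in MZL/HCL minus ABC and 0.379% in MZL/HCL minus MCL. At an unadjusted p under 0.05 there were 22 in MCL minus ABC, against 16.0% of all genes. There were 5 in MZL/HCL minus GCB, 3 in MZL/HCL minus ABC and 4 in MZL/HCL minus MCL, against 12.5%, 7.03% and 6.74% of all genes in the same order. DESeq2 called 4 in MCL minus ABC, where it called 2.62% of all genes. It called 0 in each of the other 3, against 4.10%, 1.14% and 1.31% of all genes in the same order. The widest differences of each list, as values, were SPC25 at -1.35 in ABC minus GCB and HJURP at 1.51 in MCL minus ABC for the kinetochore, and ASPM at -0.97 in MZL/HCL minus MCL and 1.26 in MCL minus ABC for the spindle. Mitotic entry ran from AURKC at -1.34 to PLK4 at 1.70, both in MCL minus ABC. ANLN had 1.18 in MCL minus ABC at the upper end of the cytokinesis list. The anaphase list ran from FBXO5 at -1.10 in ABC minus GCB to UBE2C at 1.19 in MCL minus ABC. MYBL2, which encodes B-Myb, spanned the transcription list, from -1.54 in MZL/HCL minus MCL to 1.92 in MCL minus ABC. CDKN1C, at -2.06 in MZL/HCL minus MCL, was the lowest of the brakes. None of the differences named in this paragraph passed the edgeR test. The other end of the cytokinesis list, ANLN at -1.44 in ABC minus GCB, did pass. So did that of the brakes, CDKN1C at 4.07 in MCL minus GCB.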

How the data were processed

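RNA of 36 human lymphoma cell lines was counted by targeted RNA-Seq, 1 library per line, from lysates digested with proteinase K and sequenced on an Illumina NextSeq, per the labels' protocols. The deposited count table holds whole-number counts of 2559 targets with no scaling by the authors. Of these, 10 targets named ER and a number were taken as control probes and left out (median 0.000209% of counts, at most 0.0265%). The second deposited table holds log2 values, which the authors appear to have made by dividing each count by a factor of its library, adding 1 and taking the log (largest deviation 0.0053). It served as an alternative. Reads were placed on hg38, per the submitters' processing notes. Which aligner and counter were used, and whether strand was, is not given in the sources used here.

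Counts were scaled by TMM in edgeR 4.0.16 and given as CPM, or as log2 CPM (prior count 2). Genes that reached 10 CPM in 4 lines or more were tested by the edgeR quasi-likelihood test, with 1 term per type over 34 lines and Benjamini-Hochberg adjustment over 2374 genes at 0.05. Each SE was taken from the log2 difference and the root of its F. The alternatives were DESeq2 1.42.0 as a test and as size factors, library size alone, limma 3.58.1 on the authors' log2 values, other filters, the log2 TMM factor as a covariate, and fits without 1 or 4 lines. Of these steps the edgeR fit alone was tested on simulated counts. The differences planted there were larger than those of the genes of the set, so power for smaller differences was not tested. Intervals of CPM are exact Poisson intervals at 95%, and a count of 0 allows 3 counts. Neither covers more than counting error, since no molecular identifiers are recorded. A z-score is the deviation of log2 CPM from the mean over 36 lines, in SDs. Types come from what each named line is known as. Lines are the replicates of a type. The p-values weigh a difference between types against the spread between lines. With 1 library per line, that spread also holds technical variation.

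For each comparison the 2 genes of the set with the largest difference were given in full, with the 3 highest and 3 lowest lines per gene, the 10 most alike and 5 most opposed genes, and the widest differences of each list. The 9 genes, the lists and the tests were chosen with earlier results of these data known, among them the correlation of MKI67 with TOP2A and the spread of cell cycle genes, which are therefore no independent support. Gene positions are from GENCODE release 29, and promoters from RefSeq (GRCh38.p14). The result for 1 marker is not reported here.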

Additional observations from a re-analysis of the deposited data

Results flagged for a closer look

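Within the MZL/HCL, MCL and ABC groups, 27 sets of lines (9 genes in 3 groups) were searched for a line far from the others, of which chance alone would set apart about 5%. BIRC5 in SUDHL2 lay far below the other 5 ABC lines, at 4.17 CPM against 24.0 to 29.0 CPM. BUB1 in VL51 lay far above the other 4 MZL/HCL lines, at 1711 CPM against 417 to 609 CPM. No other set held such a line, so the number set apart was near the share of chance.

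The control probes, which enter no comparison, held a signal in MEC1. Its highest control probe had 424 counts, against 0 to 64 in the other 35 libraries. MEC1 also held the highest summed myeloid (476 CPM) and epithelial (2634 CPM) markers of the 36 lines. It entered no comparison of types.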

How the results depend on the processing

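Precision here is set by the 5 to 14 lines of a type, not by depth, since at most 0.754% (BIRC5) of the variance between lines was counting error. The call counts of the 9 genes moved with the test and the lines used. With DESeq2 the counts were 1 for any difference (12.1% of all genes called), 2 for ABC minus GCB (7.12%) and 2 for MCL minus ABC (2.62%). With limma on the authors' log2 values the count was 1 for any difference (2.06%). It was 0 for each pair of types, where limma called 0% to 2.74% of all genes. Without RCK8, TOLEDO, JVM2 and DOHH2, whose types are less settled, edgeR called 1 gene in ABC minus GCB. It was TTK (-1.95, adjusted p = 0.0411), with 2.33% of all genes called. Leaving out 1 line in turn gave 0 to 2 genes for any difference, in fits that called 4.91% to 7.45% of all genes. It gave 0 to 3 for ABC minus GCB (1.22% to 3.84% of all genes). For MCL minus ABC it gave 0 to 4 (0.0422% to 2.03%), and 0 for each of the other 4 comparisons (0% to 5.15%). BUB1 was called for any difference in 13 of these 34 fits, without HC_1, KARPAS1718, MINO, OCILY18, OCILY8, REC1, RIVA, SP49, SP53, SSK41, SUDHL6, VL51 or WSU_DLCL2. None of the 12 differences given in full for the 9 genes changed sign under any of these alternatives.

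Counts over all genes ran, across the 8 other settings, from 49 to 287 for any difference, 6 to 165 for ABC minus GCB, 65 to 214 for MCL minus GCB, 7 to 97 for MZL/HCL minus GCB, 0 to 62 for MCL minus ABC, 0 to 27 for MZL/HCL minus ABC and 1 to 31 for MZL/HCL minus MCL. Over fits without 1 line they ran from 116 to 177, 29 to 91, 70 to 122, 36 to 90, 1 to 48, 0 to 0 and 1 to 19 in the same order. DESeq2 gave the upper end and limma on the authors' log2 values the lower end of each range over settings; other settings also gave 0 in MZL/HCL minus ABC. Library size alone shifted the median log2 difference of all genes by up to 0.36, and DESeq2 size factors by up to 0.08. The ANLN call was also lost with library size alone (-1.10, adjusted p = 0.0723), with the TMM covariate (-1.11, adjusted p = 0.0964) and with limma (-1.57, adjusted p = 0.0512), against -1.44. The PLK3 call was lost with DESeq2 size factors (1.46, adjusted p = 0.0583), with limma (1.43, adjusted p = 0.117) and without the same 4 lines (1.37, adjusted p = 0.105), against 1.53.

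The median SD of the 9 genes (0.988 log2 units) lay between 0.857 and 1.03 under 6 alternatives, and the median rho of their pairs (0.590) between 0.544 and 0.632 under 7. The types hold different lines, and no line of 1 type is the partner of a line of another, so no paired analysis was possible.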
